A study of Rattus norvegicus with 32 samples.

Results

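Neuropeptide precursor genes of the rat hippocampus were examined here: Pdyn, Penk, Npy, Sst, Cck, Vip, Tac1, Crh and Cort. Of these 9 names, 8 were found among the symbols of the 32883 rows of each deposited count table, and expression of Cort was not analysed here. The genes were chosen with earlier results of the same libraries known, so their differences between diets are given as a description, with standard errors and without p-values, and counts of those past a threshold are a description too. Adjusted p-values over all genes tested are given for lists of related genes, such as receptors and processing enzymes. These lists were also drawn up with earlier results known, so their p-values are not independent evidence.

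Hippocampal RNA was sequenced from 32 Sprague-Dawley rats at postnatal day 65, 4 of each sex in each of 4 diet groups. All rats were weaned onto an iron-sufficient diet, and the groups differed in what their dams had been fed. Dams of the IS group (control) received an iron-sufficient diet. Dams of the FID group (formerly iron-deficient, labelled ID in females and FID in males) received an iron-deficient diet from early gestation through the first postnatal week. Dams of the ISch and FIDch groups (FIDch labelled IDCh in females and FIDCh in males) were given the same diets with extra choline in mid to late gestation. The paper took a single male per litter for each of its experiments, but its RNA-seq data came from a previous study. Separate litters are therefore not certain for these males. For the females the sources used here say only that the same design was applied. Each sex formed a sequencing batch of its own (I for males, II for females). Differences of sex cannot be told apart from differences of batch, and every comparison was made within 1 sex.

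Neuropeptides are cut from larger precursor proteins, stored in dense core vesicles and released during sustained firing to act on G protein-coupled receptors. Prodynorphin is made by dentate granule cells, whose mossy fibres release dynorphin onto kappa opioid receptors. Somatostatin, neuropeptide Y, cholecystokinin and vasoactive intestinal peptide are made by GABAergic interneurons of the hippocampus. Proenkephalin is expressed in granule cells and in some interneurons, and corticotropin-releasing hormone in a sparse set of interneurons.

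Total counts ranged from 3515806 to 9517503 per male library (median 8007907) and from 18439999 to 26616318 per female library (median 21747536.5), so a count of 0 allows up to 0.853 CPM (counts scaled by library size) in the shallowest male library and 0.163 CPM in the shallowest female library, for counting error only. Levels are in CPM with TMM normalization over the 16 libraries of a sex. A gene is called at the study's criterion when the absolute log2 fold change exceeds 0.2 with an unadjusted p under 0.05 in edgeR's quasi-likelihood test, and the Benjamini-Hochberg adjusted p over all genes tested is given beside it. Summed dentate gyrus markers lay between 375.6 and 579.6 CPM and summed CA2 and CA3 markers between 337.1 and 462.2 CPM over the 32 libraries, while summed CA1 markers varied more, between 511.7 and 1124.96 CPM. In female FIDch the CA1 sum was 673.1, 720.1, 511.7 and 1124.96 CPM, and replicate 4 also stood apart over all genes. Its counts differed from those of the other FIDch rats by a chi-square per gene of 22.4 to 25.2, against 5.35 to 6.87 among those 3. Summed striatum markers were at 128.1 to 160.95 CPM and summed neocortex markers at 81.5 to 119.7 CPM. In females, neocortex markers were at 81.5 to 93.6 CPM in FIDch, 107.2 to 118.5 in FID, 96.3 to 104.9 in IS and 92.3 to 119.7 in ISch. The part of this in the comparisons of those groups was not tested. Female IS replicate 3 held 120.5 CPM of the hypothalamic and pituitary precursor gene Pomc, and male FID replicate 4 held 350.05 CPM of the choroid plexus gene Ttr.

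Pdyn (ENSRNOG00000026036) encodes prodynorphin, the precursor of the dynorphins and neoendorphins. The RefSeq promoter table of assembly GRCr8 held 6 of the 9 names and not Penk, Cck or Crh. For Pdyn, the precursor gene with the largest fold between diets, and for Vip, a gene with more of the searched motifs in the same window, the 250 bases before the start site are shown 5′ to 3′ on the strand of the gene, with the motifs TATAAA and TGACG in capitals. The Pdyn window is chr3:137366504-137366753 on the minus strand and the Vip window is chr1:44470230-44470479 on the plus strand.

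Pdyn: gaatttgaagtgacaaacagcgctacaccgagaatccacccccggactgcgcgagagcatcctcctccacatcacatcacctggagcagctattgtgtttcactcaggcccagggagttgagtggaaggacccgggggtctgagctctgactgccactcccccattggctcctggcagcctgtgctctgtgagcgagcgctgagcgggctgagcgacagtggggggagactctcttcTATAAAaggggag

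Vip: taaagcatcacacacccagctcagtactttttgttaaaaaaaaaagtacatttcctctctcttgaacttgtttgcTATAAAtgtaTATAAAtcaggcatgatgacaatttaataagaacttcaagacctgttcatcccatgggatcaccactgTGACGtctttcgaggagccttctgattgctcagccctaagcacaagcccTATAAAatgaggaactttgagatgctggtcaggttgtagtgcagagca

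The motifs were searched on both strands of 300 bases around each start (250 before and 50 after). They were the cAMP response element (CRE) TGACGTCA, held by 1.83% of 33469 promoters, its core TGACG (21.2%, including every full CRE), the AP-1 site TGANTCA (7.33%), the EGR site GCGNGGGCG (4.98%) and TATAAA (14.2%). Pdyn held TATAAA at bases -13 to -8 from the start and none of the other letters in this window. Sst held a full CRE at bases 3 to 10, Vip the core at -97 to -93, Tac1 at -206 to -202 and Cort at -105 to -101. The Npy window held none of the letters searched.

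Pdyn separated the females by choline. In female IS rats its level was 47.7, 59.8, 71.9 and 69.8 CPM in replicates 1 to 4, and in female FID rats 55.3, 61.5, 67.6 and 54.6 CPM. In female ISch rats it was 222.9, 159.5, 159.5 and 158.5 CPM, and in female FIDch rats 199.6, 155.8, 230.1 and 150.9 CPM. The lowest of the 8 rats with prenatal choline was thus above the highest of the 8 rats without it, while IS overlapped with FID and ISch with FIDch. The group means were 62.3 ± 11.1 CPM in IS, 59.8 ± 6.08 in FID, 175.1 ± 31.8 in ISch and 184.1 ± 37.7 in FIDch (SD, n = 4). The log2 fold change was 1.49 ± 0.14 (SE) for ISch against IS, a fold of 2.80, 1.56 ± 0.16 for FIDch against IS, a fold of 2.95, and 1.62 ± 0.13 for FIDch against FID, a fold of 3.08. ISch against IS and FIDch against IS share the IS rats. For FID against IS it was -0.07 ± 0.11, and the iron by choline term, the choline effect in FID rats minus that in IS rats, was 0.14 ± 0.21. These are bulk hippocampal libraries, in which more cells of a type and more RNA per cell cannot be told apart.

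**Figure D1:**
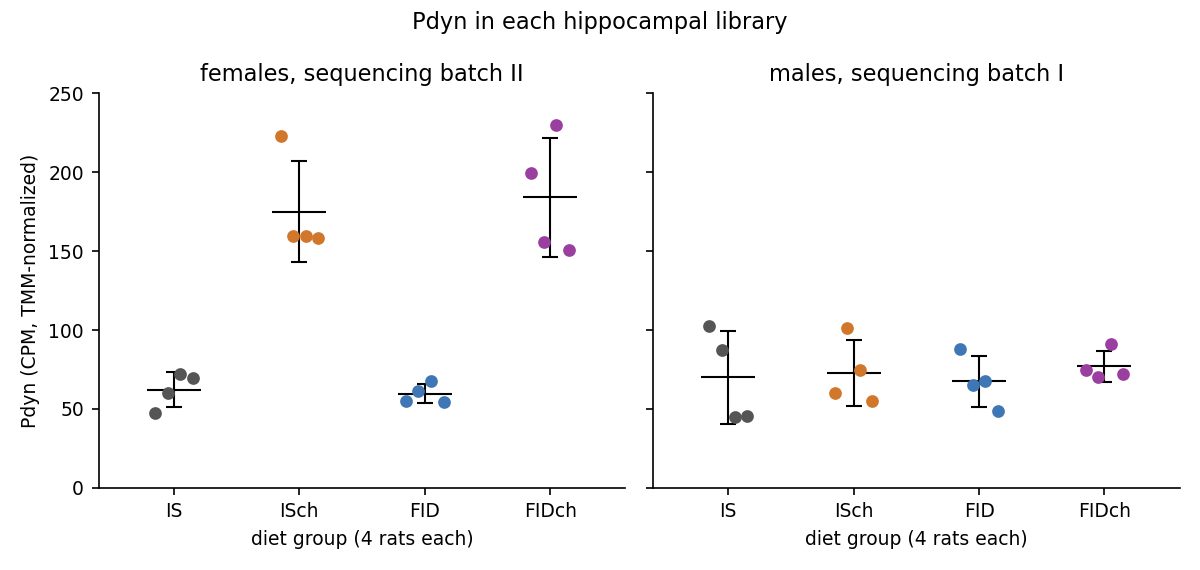
Pdyn level (y axis, CPM, TMM-normalized) in each library by diet group (x axis), with females on the left and males on the right. Each point is 1 rat, the long dash is the mean and the bar the SD of 4 rats. The female ISch and FIDch points lie between 150.9 and 230.1 CPM, above all female IS and FID points, and the 4 male groups overlap between 44.7 and 102.5 CPM.

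In males the Pdyn levels overlapped between all 4 groups. They were 102.5, 87.4, 44.7 and 45.5 CPM in IS, 59.9, 101.1, 74.8 and 54.8 in ISch, 87.9, 65.3, 67.8 and 48.8 in FID, and 74.8, 70.2, 91.3 and 72.0 in FIDch. The IS rats spread the most, and their mean was 70.0 ± 29.4 CPM (SD, n = 4). The log2 fold change was 0.04 ± 0.26 for ISch against IS, 0.14 ± 0.23 for FIDch against IS, 0.20 ± 0.14 for FIDch against FID and -0.07 ± 0.25 for FID against IS. The female value exceeded the male value by 1.45 ± 0.29 on the log2 scale for ISch against IS, by 1.42 ± 0.27 for FIDch against IS and by 1.42 ± 0.19 for FIDch against FID. The female libraries were also sequenced more deeply and in another batch, and the part of either in this gap was not tested.

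Dentate gyrus markers, like Pdyn, were mostly higher in the female groups with choline. Of the 8 markers listed, 7 were tested, and Tdo2 was at 0 to 3 counts in every library. In ISch against IS all 7 were higher at the study's criterion, which 10.3% of all genes met in either direction, and 6 rose with an adjusted p under 0.05 in edgeR's test: Dsp (a desmosome gene of granule cells, log2 fold change 2.87 ± 0.17, adjusted p 2.73e-05), Prox1 (the granule cell transcription factor, 0.39 ± 0.07, 0.0227), C1ql2 (a mossy fibre synaptic protein, 0.51 ± 0.08, 0.0103), Trpc6 (0.36 ± 0.06, 0.0115), Plk5 (0.52 ± 0.11, 0.04) and Calb1 (calbindin, 0.34 ± 0.08, 0.049). Dsp, C1ql2 and Trpc6 stayed under 0.05 in each of 8 fits that left out 1 library. Prox1 did not without IS replicate 1, 2 or 3, and Calb1 and Plk5 held in only 1 of the 8 fits, with adjusted p up to 0.0679, 0.164 and 0.127 over the alternatives. Trpc6 reached 0.0752 under another alternative. In FIDch against IS, 6 markers were higher at the criterion (8.98% of all genes) and Dsp passed the adjusted threshold (2.81 ± 0.19, adjusted p 0.00011). In FIDch against FID, 3 were higher (12.7% of all genes) and Dsp (2.95 ± 0.19, 4.33e-05) and Prox1 (0.39 ± 0.05, 0.00559) passed it. In male ISch against IS, 3 of the 7 were lower at the criterion (8.06% of all genes) and none passed the adjusted threshold.

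Dsp had the widest gap of these markers. It was at 1.60 to 2.22 CPM in female IS, 1.37 to 1.86 in FID, 11.9 to 18.2 in ISch and 10.1 to 16.1 in FIDch, so both choline groups lay above both groups without choline. Its fold was 7.3 for ISch against IS, larger than that of Pdyn. In males Dsp ranged from 1.07 to 11.5 CPM over the 16 libraries, with a median of 7.06 CPM. The 3 lowest were ISch replicates 1 and 2 (1.57 and 1.07 CPM) and FIDch replicate 2 (2.24 CPM), the 3 male libraries whose label has another form, and Pdyn there was at 59.9, 101.1 and 70.2 CPM, inside the range of the other males. All male IS and FID rats thus lay above 2.24 CPM of Dsp, and above every female rat without choline. The low Dsp of those females was therefore not shared by males without choline, and the cause was not tested. The other 7 markers, summed, gave 373 to 435 CPM in female IS, 404 to 447 in FID, 502 to 568 in ISch and 461 to 560 in FIDch, and 419 to 504 CPM in the 16 males.

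Pdyn was therefore also divided by this sum without Dsp, a measure chosen after the markers were seen. The ratio in females was 0.152 ± 0.018 in IS, 0.141 ± 0.0127 in FID, 0.331 ± 0.0688 in ISch and 0.372 ± 0.0889 in FIDch (SD, n = 4). The groups with choline (0.269 to 0.478) lay above those without (0.124 to 0.166). The ratio of ISch to IS was 2.17, of FIDch to IS 2.44 and of FIDch to FID 2.64. That each is smaller than the fold of Pdyn itself follows from the division, since the marker sum was higher with choline. In males the mean ratio was 0.157 (IS), 0.162 (ISch), 0.142 (FID) and 0.174 (FIDch), and all 4 groups overlapped.

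**Figure D2:**
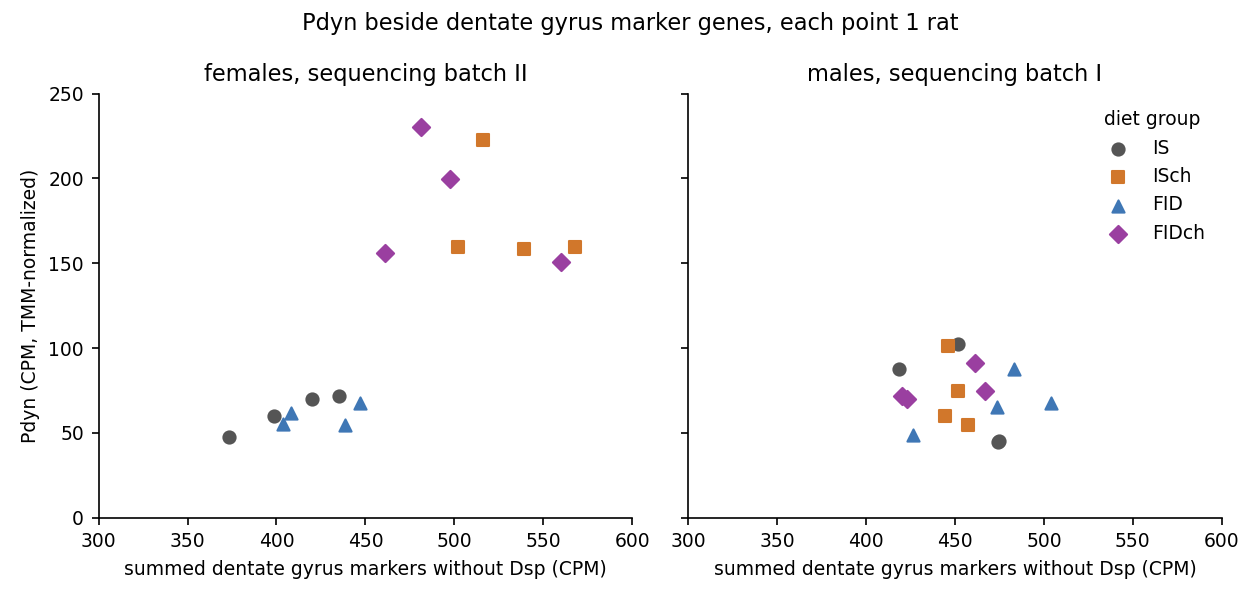
Pdyn level (y axis, CPM) against the summed dentate gyrus markers without Dsp (x axis, CPM, starting at 300) for each rat, with females on the left and males on the right, coloured and shaped by diet group. Female rats with choline lie to the upper right, at 461 CPM or more of the markers and 150.9 CPM or more of Pdyn, and the male groups are mixed.

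The second opioid precursor gene, Penk (ENSRNOG00000008943), differed less. In females Penk was at 16.8, 20.5, 28.0 and 23.5 CPM in IS, 22.8, 21.0, 24.1 and 21.1 in FID, 26.2, 29.3, 23.9 and 25.6 in ISch, and 29.1, 26.1, 28.2 and 31.6 in FIDch. All FIDch rats lay above all FID rats, while FIDch and ISch each overlapped with IS. The log2 fold change was 0.37 ± 0.08 for FIDch against FID, 0.37 ± 0.13 for FIDch against IS, 0.24 ± 0.13 for ISch against IS and 0.00 ± 0.12 for FID against IS. In males the signs were opposite and the groups overlapped, at -0.20 ± 0.13, -0.17 ± 0.16 and -0.22 ± 0.14 for the same choline comparisons, with levels of 20.3 to 36.1 CPM.

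Of the interneuron peptides, Sst (ENSRNOG00000001837), whose product somatostatin inhibits pyramidal cell dendrites, overlapped between all compared groups in both sexes. Sst lay between 60.0 and 87.4 CPM in females and between 54.3 and 89.4 CPM in males, and its log2 fold changes ranged over the 8 comparisons from -0.08 ± 0.13 to 0.17 ± 0.10. Summed interneuron markers also overlapped between the groups, at 1038 to 1293 CPM over the females and 1030 to 1153 CPM over the males. The sum includes Prox1, which stands in the dentate list too, and a sum can hide moves of single genes. In female FIDch against FID, 1 of the 13 markers tested was higher and 2 were lower at the criterion, which 12.7% of all genes met. Their median log2 fold change there was -0.13.

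Cck (ENSRNOG00000019321) encodes cholecystokinin, found in basket cells and in some pyramidal cells. In females Cck was at 101.9, 93.2, 95.8 and 98.4 CPM in IS and at 119.1, 102.9, 134.6 and 104.3 CPM in FID, so the FID rats lay above the IS rats, the nearest pair being 101.9 and 102.9 CPM. The log2 fold change was 0.24 ± 0.07. In ISch it was at 94.2 to 110.1 CPM and in FIDch at 82.9 to 117.7 CPM, both overlapping with IS, and the iron by choline term was -0.30 ± 0.14. Without FID replicate 3, the highest library, FID against IS was 0.16 ± 0.06, below the 0.2 of the criterion. In males Cck lay between 67.9 and 104.3 CPM and FID against IS was -0.12 ± 0.12.

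Vip (ENSRNOG00000018808), whose product marks interneurons that inhibit other interneurons, overlapped between the compared groups. In males it was at 25.9, 16.9, 14.6 and 20.6 CPM in IS, 14.3, 15.3, 19.4 and 20.6 in ISch, 19.97, 19.6, 14.9 and 20.4 in FID, and 14.3, 14.3, 17.5 and 15.6 in FIDch. FIDch against FID was -0.27 ± 0.12 on the log2 scale and met the criterion, with FID replicate 3 inside the FIDch range. In females it was at 16.6 to 18.1 CPM in IS, 15.3 to 17.7 in FID, 14.8 to 23.5 in ISch and 12.4 to 20.8 in FIDch, so the choline groups spread the most.

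That spread followed the numbers in the library labels. Of the 8 female choline libraries, 4 carry label numbers 1 to 3 (ISch replicates 2 to 4 and FIDch replicate 4) and 4 carry numbers 16 to 18 (ISch replicate 1 and FIDch replicates 1 to 3). ISch replicate 1 and FIDch replicate 4, each the only library of its group in its set of numbers, also stood apart from their groups over all genes. Vip was at 18.5 to 23.5 CPM in the first 4 and 12.4 to 14.8 CPM in the others. Pdyn was at 151 to 160 CPM and at 156 to 230 CPM. Summed CA1 markers followed the same split without overlap, at 944.1 to 1124.96 CPM in the libraries numbered 1 to 3 and 511.7 to 765.9 CPM in those numbered 16 to 18, and their part in the spread of Vip and Pdyn was not tested. What the numbers stand for is not given in the sources used here, and this split was chosen after the values were seen. The female libraries without choline all carry numbers below 16, so numbers 16 to 18 occur only with choline. Fits with only those libraries in the choline group cannot tell choline from label number. FIDch holds more of them than ISch, so the FIDch comparisons and the iron by choline terms carry this imbalance. With only the libraries numbered 1 to 3 in the choline group, Pdyn in ISch against IS was 1.35 ± 0.11, and with only those numbered 16 to 18 it was 1.64 ± 0.14 in FIDch against IS and 1.71 ± 0.11 in FIDch against FID. Vip in FIDch against IS was -0.20 ± 0.15 with all libraries and -0.39 ± 0.09 with only those numbered 16 to 18.

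**Figure D3:**
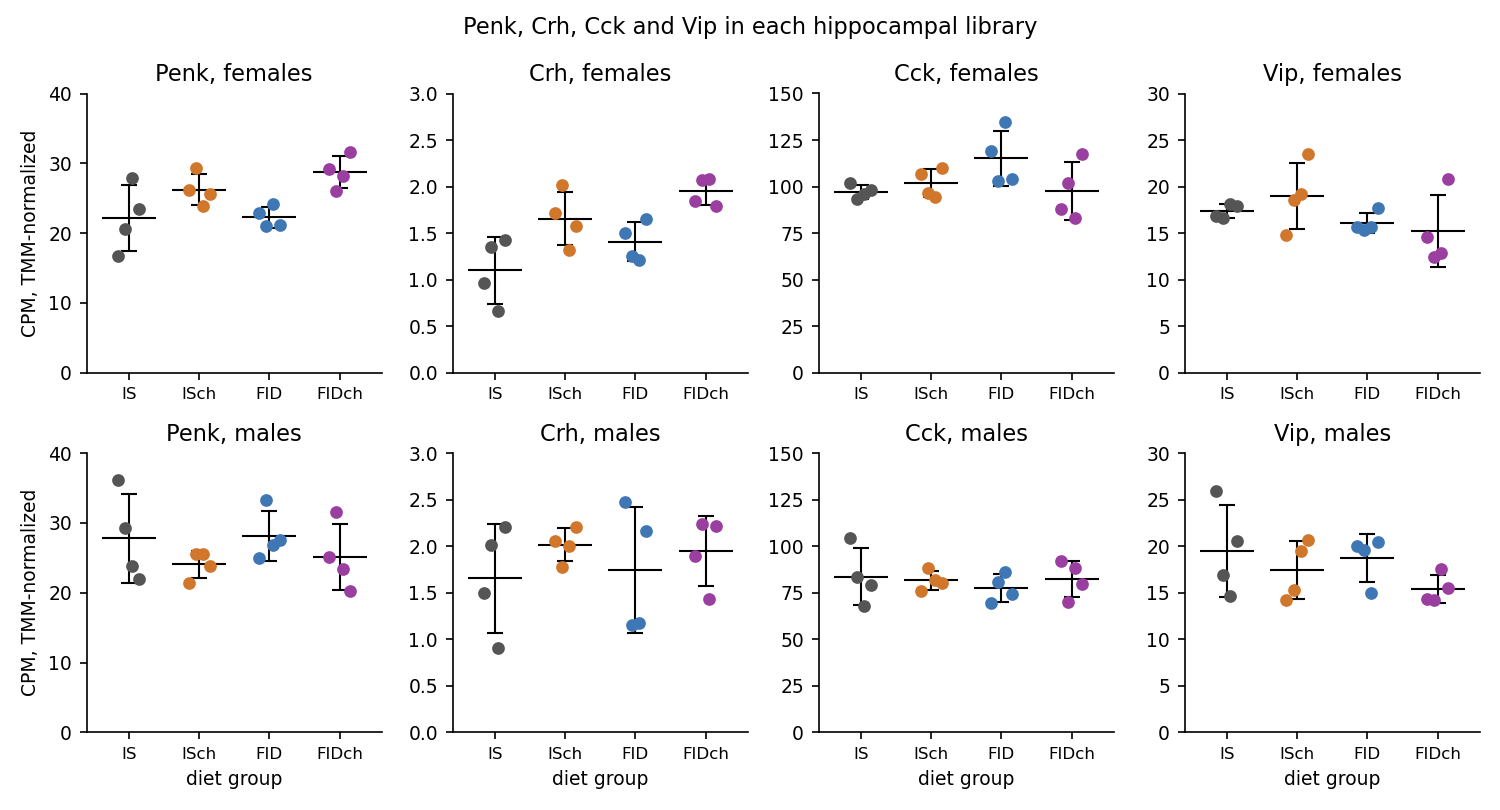
Penk, Crh, Cck and Vip levels (y axes, CPM, each gene on its own scale) in each library by diet group (x axes), females above and males below. Points are rats, dashes the means and bars the SD of 4 rats. In females, the FIDch points of Penk and Crh lie above the FID points and the FID points of Cck above the IS points, and in males the groups overlap.

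Tac1 (ENSRNOG00000007374), the precursor gene of substance P and neurokinin A, overlapped between the compared groups in both sexes. It lay between 3.45 and 7.68 CPM in females and 5.42 and 11.6 CPM in males. FID against IS was 0.25 ± 0.14 in females and 0.33 ± 0.21 in males, and FIDch against FID was -0.37 ± 0.18 and -0.20 ± 0.21, none of which met the criterion.

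Crh (ENSRNOG00000012703), the stress peptide gene, was counted 15 to 55 times per female library and 6 to 21 times per male library. In females it was at 0.96, 1.35, 0.66 and 1.43 CPM in IS, 1.505, 1.26, 1.21 and 1.65 in FID, 1.71, 2.01, 1.32 and 1.58 in ISch, and 1.85, 2.07, 2.08 and 1.79 in FIDch. All FIDch rats lay above all IS and all FID rats, and ISch overlapped with IS. The log2 fold change was 0.82 ± 0.25 for FIDch against IS, 0.46 ± 0.19 for FIDch against FID, 0.58 ± 0.27 for ISch against IS and 0.35 ± 0.26 for FID against IS. In males Crh lay between 0.90 and 2.48 CPM, and FIDch against IS was 0.19 ± 0.31.

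Npy (ENSRNOG00000046449), the gene of neuropeptide Y, was counted 0 or 1 times per male library and 1 to 13 times per female library. It did not pass the filter on low counts in any comparison, and no fold is given. How reads that map to more than 1 place were counted is not given in the sources used here, so this row cannot be read as the level of Npy in the tissue.

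Over the 7 precursor genes that passed the filter on low counts, the calls at the study's criterion lay mostly in the female choline comparisons. In females, 1 of the 7 met it in FID against IS (Cck, with 6.47% of all 14632 genes tested), 3 in FIDch against IS (Pdyn, Penk and Crh, with 8.98%), 1 in ISch against IS (Pdyn, with 10.3%), 3 in FIDch against FID (Pdyn, Penk and Crh, with 12.7%) and 1 in the iron by choline term (Cck, with 7.33%). In males, none met it in FID against IS (4.62% of all genes), FIDch against IS (6.12%), ISch against IS (8.06%) or the iron by choline term (14.4%), and 1 in FIDch against FID (Vip, with 13%). Those past an adjusted p of 0.05, again as a description, were Pdyn in the female comparisons ISch against IS (2.54% of all genes), FIDch against IS (0.907%) and FIDch against FID (2.28%), and Penk in the last. The share of all genes at that threshold was 0.191% in female FID against IS, 0.00668% in the female iron by choline term, and in males 0% in FID against IS, 0.131% in FIDch against IS, 0.208% in ISch against IS, 1.28% in FIDch against FID and 0.00699% in the iron by choline term, with no precursor gene among them. Since the genes were chosen with these contrasts known, nothing is read from their share against that of all genes. The median log2 fold change of all genes lay between -0.00969 and 0.0102 over these comparisons.

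**Figure D4:**
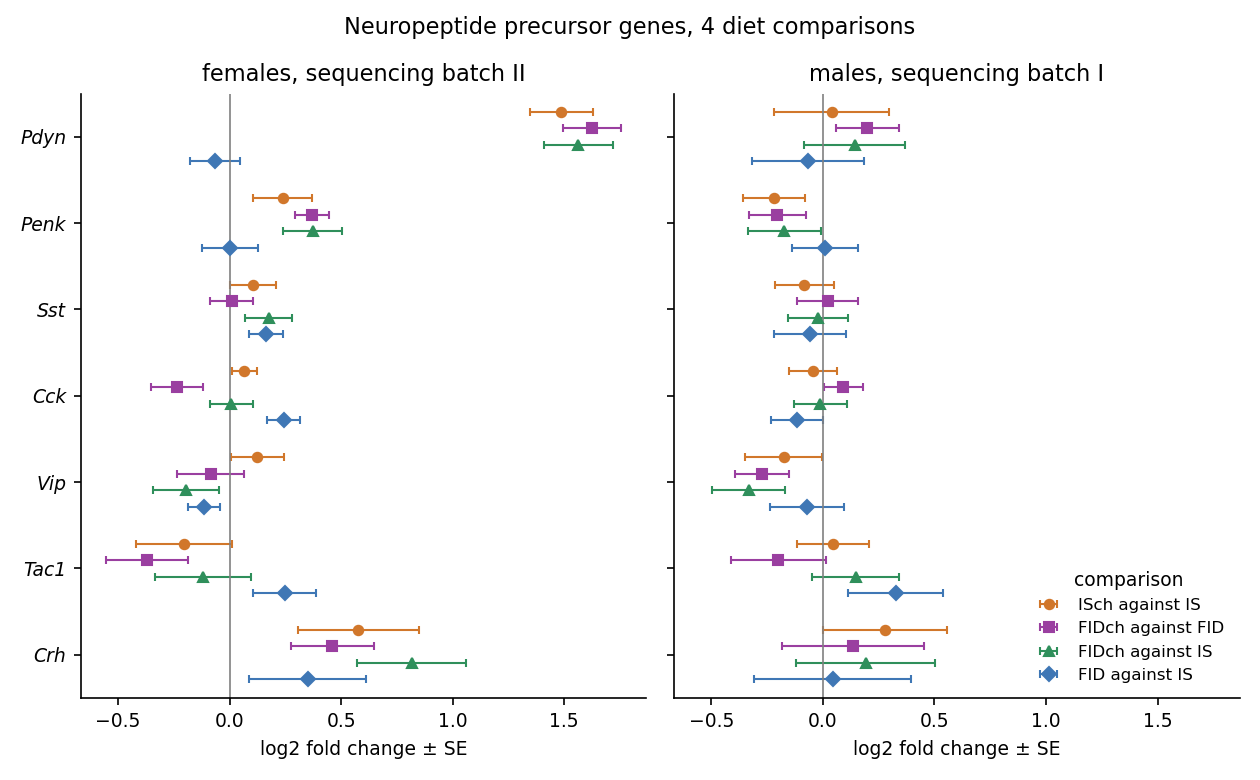
Log2 fold change (x axis) of the 7 precursor genes tested (y axis) in 4 diet comparisons, with females on the left and males on the right. Points are edgeR estimates and bars their SE, from 4 rats against 4. The 3 female Pdyn estimates that contrast choline with no choline lie between 1.49 and 1.62, and all the other estimates lie between -0.37 and 0.82.

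Receptor genes of these peptides were tested as a list of 22, of which 21 had a row and 17 to 19 were tested, depending on the comparison. Among females, 2 of 19 were higher and 3 lower at the criterion in FIDch against IS, 1 higher and 3 lower in ISch against IS, 0 higher and 4 lower in FIDch against FID, and 0 in FID against IS, beside 8.98%, 10.3%, 12.7% and 6.47% of all genes called in these comparisons in either direction. The median log2 fold change of the list was -0.12 in FIDch against IS, -0.11 in ISch against IS and -0.06 in FIDch against FID, with that of all genes at 0.00. None of the male calls at the criterion, between 1 and 5 per diet comparison beside 4.62% to 13% of all genes, had an adjusted p under 0.05.

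The opioid receptor genes showed no call in females. Oprk1, the kappa receptor on which dynorphin acts, was at 0.40 to 1.47 CPM over the females, from 8 to 36 counts per library. It was at 0.61, 1.24, 1.27 and 1.47 CPM in IS, 0.88, 0.98, 1.06 and 0.40 in ISch, 1.46, 1.20, 0.999 and 1.45 in FID, and 0.67, 0.94, 1.24 and 0.74 in FIDch. The log2 fold change was -0.49 ± 0.35 for ISch against IS, -0.37 ± 0.31 for FIDch against IS and -0.52 ± 0.26 for FIDch against FID, none at the criterion. Oprd1 (delta) and Oprm1 (mu) also met no criterion in females. In males, Oprm1 was 0.85 ± 0.37 in FID against IS, at the criterion with overlapping groups and an adjusted p of 0.786.

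Somatostatin receptor genes held 2 of the 3 receptor genes with an adjusted p under 0.05. Sstr4 was at 30.2, 28.9, 24.9 and 30.1 CPM in female IS, 27.0, 29.7, 28.4 and 29.3 in FID, 26.5 to 27.3 in ISch, and 23.9, 19.98, 20.6 and 19.998 in FIDch, so the FIDch rats lay below all others. Sstr4 fell in FIDch against FID (log2 fold change -0.44 ± 0.07, adjusted p 0.0142) and in FIDch against IS (-0.43 ± 0.08, 0.0426), and its iron by choline term was -0.35 ± 0.10 (adjusted p 0.283). Sstr3 fell in ISch against IS (-0.29 ± 0.06, adjusted p 0.0365), with 44.8 ± 2.28 CPM in IS and 36.8 ± 2.69 CPM in ISch, and was -0.21 ± 0.07 in FIDch against FID (adjusted p 0.163). Sstr1 was -0.41 ± 0.13 in FIDch against FID (adjusted p 0.125). The adjusted p of Sstr4 in FIDch against FID passed 0.05 without FID replicate 2 or 4 (up to 0.0566 over the alternatives). In FIDch against IS it did so without IS replicate 1, 2 or 4 or FIDch replicate 2 or 3 (up to 0.152), and Sstr3 in ISch against IS stayed under 0.05 in 1 of 8 fits that left out a library (up to 0.143). Both kept the study's criterion in all 8. Sstr2 was at the criterion in male ISch against IS (0.42 ± 0.11, adjusted p 0.246) and in the female iron by choline term (-0.32 ± 0.13, 0.491).

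Markers of other regions and cell classes moved in the same female comparisons. In FIDch against FID the neocortical projection neuron genes Fezf2 (-0.63 ± 0.08, adjusted p 0.00565) and Tbr1 (-0.44 ± 0.09, 0.0295) fell, and so did Slc32a1, the vesicular GABA transporter gene of interneurons (-0.25 ± 0.05, 0.0425). Prox1, which stands in both the interneuron and the dentate lists, rose in that comparison (0.39 ± 0.05, 0.00559). In ISch against IS the CA2 and CA3 marker Cdh24 fell (-0.48 ± 0.10, 0.0292). Of the 5 neocortex markers tested, 0 were higher and 3 lower at the criterion in FIDch against FID (12.7% of all genes). In ISch against IS 3 were higher and 0 lower (10.3%), with a median log2 fold change of 0.22. In FID against IS 2 were higher and 0 lower (6.47%), and in FIDch against IS 0 were higher and 1 lower (8.98%). Fezf2 stayed under 0.05 in all 8 fits that left out a library, while Tbr1 (up to 0.0938 over the alternatives) did not without FID replicate 1, 2 or 4 or FIDch replicate 2 or 3, and Slc32a1 (up to 0.126) and Cdh24 (up to 0.122) held in 1 of 8. Their part in the falls of Sstr3, Sstr4 and Cadps2 was not tested.

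Among the tachykinin receptor genes, Tacr2 was low and lower still with choline. It was at 2.07, 2.32, 2.15 and 1.98 CPM in female IS, 1.95, 1.99, 2.31 and 1.69 in FID, 0.44, 0.44, 1.16 and 1.04 in ISch, and 0.98, 0.75, 1.46 and 0.87 in FIDch, from 8 to 60 counts per library. Every choline rat lay below every rat without choline. Tacr2 fell in ISch against IS (-1.47 ± 0.31, adjusted p 0.0321), and was -1.07 ± 0.23 in FIDch against IS (0.0646) and -0.96 ± 0.24 in FIDch against FID (0.0684). Its adjusted p in ISch against IS stayed under 0.05 in 2 of 8 fits that left out a library, with a highest value of 0.106 over the alternatives. Tacr3 was 0.75 ± 0.29 in FIDch against IS, at the criterion with overlapping groups and an adjusted p of 0.296. In males, Tacr3 was 0.58 ± 0.12 in FID against IS and 0.48 ± 0.20 in FIDch against IS, with adjusted p of 0.786 and 0.571. Male Tacr2 was not tested in 3 of the 4 diet comparisons.

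Receptors for the other peptides had no adjusted call. Npy2r was at 4.14 to 7.72 CPM in the female choline libraries with label numbers 1 to 3, and at 14.3 to 19.6 CPM in those numbered 16 to 18, beside 11.9 to 16.3 CPM in the 8 rats without choline. Its ISch against IS value of -0.78 ± 0.32, at the criterion, rests on ISch replicates 2 to 4, and in FIDch against IS Npy2r was 0.01 ± 0.35. Crhr1, the receptor of corticotropin-releasing hormone, was -0.65 ± 0.21 in male FID against IS and -0.77 ± 0.21 in male ISch against IS without overlap, with an iron by choline term of 1.13 ± 0.32 and adjusted p of 0.786, 0.275 and 0.169. Crhbp, which binds the same peptide, was 0.43 ± 0.18 in female FIDch against IS and 0.24 ± 0.09 in female ISch against IS, both at the criterion with adjusted p of 0.329 and 0.224. Cckbr, Npy1r, Npy5r and Adcyap1r1 were not at the criterion in any female comparison, and Vipr2 was -0.30 ± 0.13 in FIDch against IS (adjusted p 0.358).

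**Figure D5:**
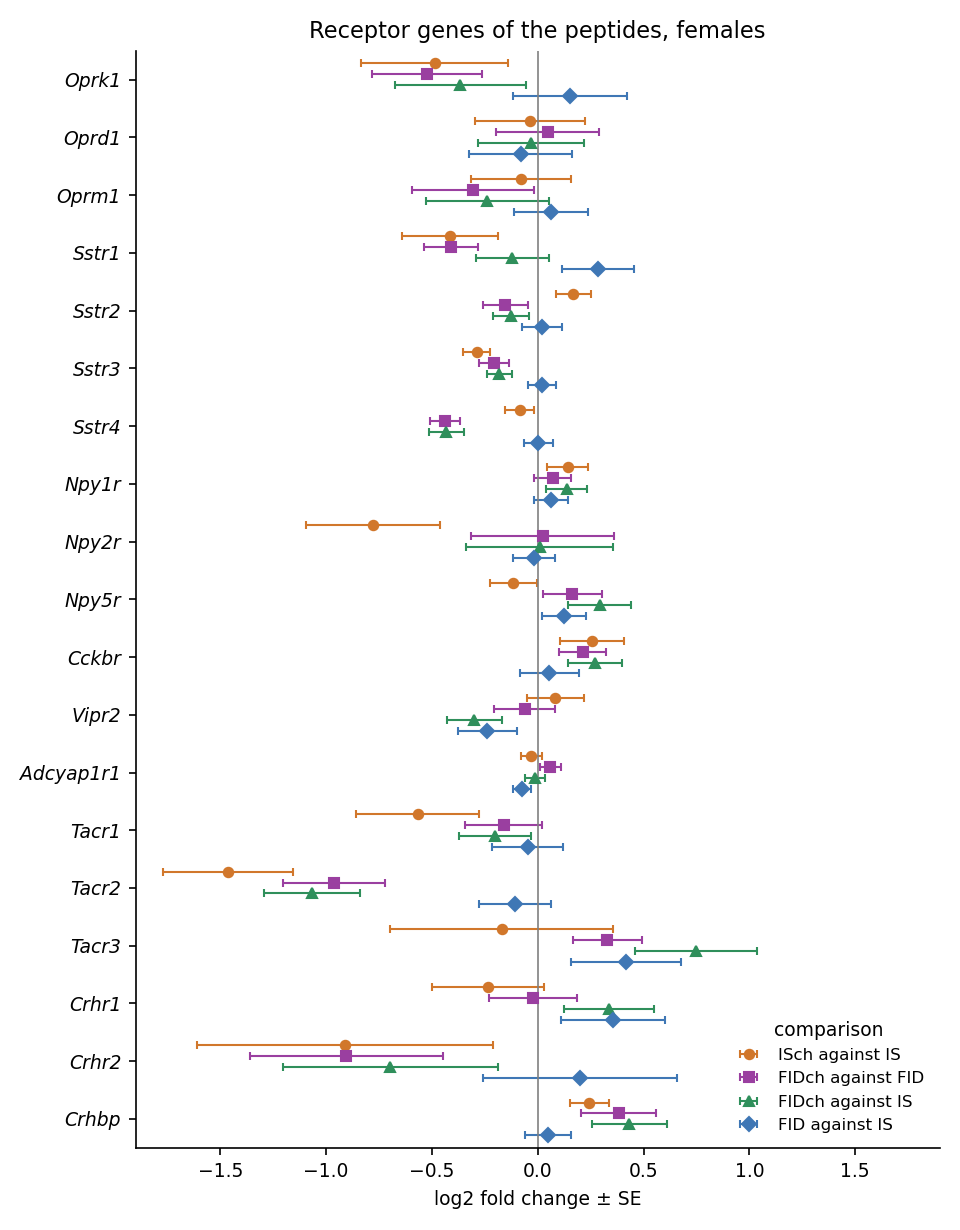
Log2 fold change (x axis) of the peptide receptor and binding protein genes tested in females (y axis) in 4 diet comparisons. Points are edgeR estimates and bars their SE, from 4 rats against 4. Tacr2 lies at -0.96 to -1.47 and Sstr3 at -0.18 to -0.29 in the 3 comparisons of choline with no choline, Sstr4 lies near -0.44 in both FIDch comparisons, and the opioid receptors have bars that are wide beside their values.

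Of the genes that process and package peptides, 1 passed the adjusted threshold. Of the 16 tested, 4 met the criterion in female FIDch against FID (1 higher and 3 lower), 2 in FIDch against IS, 1 in ISch against IS and 2 in FID against IS, beside 12.7%, 8.98%, 10.3% and 6.47% of all genes. Cadps2, a priming factor of dense core vesicles, fell in FIDch against FID (-0.50 ± 0.08, adjusted p 0.0145), from 94.7, 103.0, 95.7 and 95.5 CPM to 64.0, 70.8, 59.7 and 79.9 CPM. Without FID replicate 2 its adjusted p was over 0.05 (0.0566 is the highest over the alternatives). Scg2, a granin that is itself a peptide precursor, was 0.22 ± 0.06, 0.33 ± 0.07 and 0.23 ± 0.07 in FIDch against FID, FIDch against IS and ISch against IS, at the criterion without overlap in each and with adjusted p of 0.083, 0.0857 and 0.124. Vgf was 0.29 ± 0.08 in FID against IS and -0.33 ± 0.10 in FIDch against FID (adjusted p 0.195 and 0.121), and Ptprn2, a vesicle membrane gene, was 0.47 ± 0.20 and -0.26 ± 0.07 (0.402 and 0.074). The convertase genes Pcsk1 and Pcsk2 and the carboxypeptidase gene Cpe, whose products cut these precursors, met no criterion in any diet comparison of either sex.

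Other neuropeptide precursor genes numbered 18, with 8 to 10 tested. Nmb, the gene of neuromedin B, rose in female FIDch against FID (0.76 ± 0.13, adjusted p 0.016), from 6.33 ± 0.857 CPM to 10.7 ± 1.43 CPM (SD, n = 4). It was also higher at the criterion in ISch against IS (0.64 ± 0.18, adjusted p 0.0968) and FIDch against IS (0.57 ± 0.13, 0.0802). Its adjusted p in FIDch against FID was over 0.05 without FID replicate 1, 2 or 3 or FIDch replicate 1, up to 0.0615 over the alternatives. Grp (gastrin-releasing peptide) was 0.81 ± 0.23 in female FID against IS and 0.95 ± 0.29 in FIDch against IS, and Adcyap1 (the precursor gene of PACAP) was 0.30 ± 0.09 in FID against IS and 0.37 ± 0.11 in ISch against IS, with adjusted p of 0.206, 0.199, 0.206 and 0.136. In males, Cartpt was -1.22 ± 0.40 in FID against IS and -1.31 ± 0.39 in FIDch against IS, and Nts was 0.53 ± 0.12 in ISch against IS, with adjusted p of 0.786, 0.393 and 0.134. Tac3 (neurokinin B) was 0.31 ± 0.14 in female ISch against IS and 0.44 ± 0.14 in male FIDch against FID, and Nppc was -0.52 ± 0.22 in male FIDch against IS, with adjusted p of 0.28, 0.129 and 0.607. Of 11 peptidase genes tested, Ece1 and Ace were lower at the criterion in female FIDch against IS (-0.29 ± 0.08 and -0.36 ± 0.12, adjusted p 0.147 and 0.238) and Ace in FIDch against FID (-0.34 ± 0.11, adjusted p 0.125). In male FIDch against FID the peptidase Nln was -0.21 ± 0.09 (adjusted p 0.258).

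CREB family genes and activity-induced genes regulate or accompany transcription of neuropeptide genes. In female ISch against IS, Crem, a CREB family gene, rose (0.44 ± 0.09, adjusted p 0.0323) and Crebbp, which encodes the coactivator CBP, fell (-0.30 ± 0.06, 0.0275), and the other 11 of 13 genes met no criterion. Crem held an adjusted p under 0.05 in 2 of 8 fits that left out a library and Crebbp in 3, with a highest value of 0.0918 for each over the alternatives. Kcnip3, which encodes the prodynorphin gene repressor DREAM, was -0.22 ± 0.09 in female FIDch against FID (adjusted p 0.242) and -0.26 ± 0.11 in male ISch against IS (0.457). Cebpb in males was 0.69 ± 0.17 in FIDch against FID (adjusted p 0.0757), where Fosl2 was 0.38 ± 0.13 and Crtc2 0.24 ± 0.10 (0.16 and 0.21).

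Of the 13 activity-induced genes, 7 were higher at the criterion in female ISch against IS (10.3% of all genes in either direction) and 4 rose with an adjusted p under 0.05. Egr2 was at 3.25 to 3.99 CPM in IS and 8.04 to 9.93 CPM in ISch (1.33 ± 0.12, adjusted p 0.000324). Bdnf, the gene of brain-derived neurotrophic factor, was at 33.7 to 37.4 CPM in IS and 53.1 to 65.7 CPM in ISch (0.65 ± 0.07, 0.0015), and rose in FIDch against IS as well (0.48 ± 0.07, 0.0177). Egr1 (0.46 ± 0.07, 0.0114) and Nr4a1 (0.44 ± 0.10, 0.0405) completed the 4. Egr1, Egr2 and Bdnf in ISch against IS stayed under 0.05 in all 8 fits that left out a library. Nr4a1 did so in 1 (up to 0.224 over the alternatives), and Bdnf in FIDch against IS did not without IS replicate 1, 2 or 4 or FIDch replicate 1 or 2 (up to 0.0738).

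In female FIDch against FID, by the same list, 1 of the 13 was higher and 2 were lower at the criterion, which 12.7% of all genes met. Fos was at -0.69 ± 0.25, Egr1 at -0.29 ± 0.12 and Bdnf at 0.22 ± 0.09 (adjusted p 0.168, 0.227 and 0.228). Egr2 lay at 2.47 to 5.53 CPM in FID and 2.83 to 6.25 CPM in FIDch, below every ISch rat. The iron by choline term was lower at the criterion for 6 of the 13 in females, beside 7.33% of all genes in either direction. Among the 6 were Egr2 (-1.10 ± 0.32), Egr4 (-0.86 ± 0.26) and Egr1 (-0.75 ± 0.15), with adjusted p of 0.346, 0.356 and 0.141. In female FID against IS, 5 were higher and 1 lower at the criterion (6.47% of all genes), among them Npas4 (1.01 ± 0.26, adjusted p 0.155) and Junb (0.36 ± 0.11, 0.22). In FIDch against IS, Npas4 was 0.60 ± 0.23 and Inhba 0.47 ± 0.18 (0.302 and 0.294). In males no gene of this list had an adjusted p under 0.05, and the criterion was met by Nptx2 in ISch against IS (-0.41 ± 0.10) and by Npas4 in FIDch against FID (-0.63 ± 0.22), with adjusted p of 0.156 and 0.175.

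Genes next to Pdyn were compared in females, 5 tested protein-coding genes on each side by their order in RefSeq's annotation of GRCr8, a set added after the data were seen. In ISch against IS, Chchd5 rose (0.51 ± 0.08, adjusted p 0.0103), Slc20a1 rose (0.22 ± 0.05, 0.0429), Nop56 fell (-0.27 ± 0.05, 0.0249) and Idh3b fell (-0.17 ± 0.04, 0.0429). Chchd5 was also 0.51 ± 0.10 in FIDch against IS and 0.43 ± 0.10 in FIDch against FID (adjusted p 0.0517 and 0.0627), and Polr1b was 0.30 to 0.31 in the 3 comparisons of choline with no choline. None of the 10 was near the 1.49 to 1.62 of Pdyn itself.

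Genes whose pattern was most like Pdyn were chosen by Pearson's r of log2 CPM over the 16 libraries of one sex and looked at in the other. The 5 highest among 11057 female candidates were Dsp (r = 0.94), Pld5 (0.93), Sppl2a (0.93), Ift140 (0.92) and Gsta4 (0.92). These follow the split of the females by choline, since Pdyn falls into 2 clusters there. Within the 8 females with choline their r was -0.02 (Dsp) to 0.35 (Sppl2a), and within the 8 without it was -0.76 (Dsp) to 0.50 (Sppl2a). Over the 16 males their r with Pdyn was -0.43 to -0.11, with adjusted permutation p of 0.362 to 0.683 over 5 relations, Spearman's rho was -0.49 to -0.03 (adjusted permutation p 0.279 or more), and without the 2 libraries farthest from the median of Pdyn r was -0.46 to -0.11. Among 11530 male candidates the 5 highest were Ier5l (r = 0.86), Rnft2 (0.84), Kctd3 (0.82), Nsg1 (0.82) and Armcx6 (0.80). Within the 8 females with choline and the 8 without, their r was -0.44 to 0.55, with adjusted exact permutation p of 0.715 or more over 10 relations, rho was -0.55 to 0.38 (adjusted exact permutation p of 1), and without the 2 farthest libraries r was -0.49 to 0.64. At these numbers of libraries, no relation passed 0.05 in the sex that did not choose it.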

How the data were processed

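The authors deposited raw read counts per gene, 1 table per sex. The submitters' processing notes name FastQC, Trimmomatic, HISAT2, featureCounts (Subread) and Rnor_6.0, and the use of strand and of multi-mapping reads is not given in the sources used here. The deposited counts were tested for each pair of groups in edgeR 4.0.16 (R 4.3.3) by the quasi-likelihood test after filterByExpr and TMM scaling, and the iron by choline term was fitted on the 16 libraries of a sex. No covariate was used. The SE of a log2 fold change was derived as its absolute value divided by the square root of the F statistic of this test. For differences between the sexes, the SE is the square root of the summed squares of both. The p-values measure the spread between rats taken as independent, and neither litter nor label number was in the fits. Alternatives were DESeq2 1.42.0, edgeR's likelihood ratio test, RLE factors, no filter on low counts, the 4 groups in one fit, a replicate block, and leaving out libraries. The test was run first on simulated counts.

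The precursor genes and the lists were chosen with earlier results of these data known. Genes named were all precursor genes, the receptors of each peptide, list genes with an adjusted p under 0.05, in each comparison up to 3 list genes at the study's criterion with the largest change, and the 5 genes most like Pdyn in each sex (mean of at least 5 CPM, 100000 resamples, exact for 8 libraries). Marker genes, and genes in the iron by choline term, that met the criterion alone are mostly left as counts or left out for length. Others named from the lists were chosen after their values were seen. Depth and its limits stand in the results.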

Additional observations from a re-analysis of the deposited data

Results flagged for a closer look

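Single rats stood apart from the other 3 of their group in 9 of the sets of 4 values examined, by Dixon's 95% critical value. This held for 5 of 64 sets of the precursor genes, and chance gives about 1 in 20. These include Npy sets where a single count beside 0 is always flagged, and sets holding only 0 cannot be flagged. It also held for 4 of 40 sets of Npy2r, Tacr2, Dsp, Ttr and Pomc. Those genes were picked by hand, with the stray libraries of Pomc and Ttr among them, so their share is not set against chance. Pdyn was at 222.9 CPM in female ISch replicate 1, with the other ISch rats at 159 to 160 CPM. Vip was at 17.7 CPM in female FID replicate 4 (others 15.3 to 15.6) and at 14.9 CPM in male FID replicate 3 (others 19.6 to 20.4). Npy was at 0.105 CPM in male FID replicate 2 and 0.125 CPM in male IS replicate 1, each a single count beside 0 in the others. Dsp was at 18.2 CPM in female ISch replicate 4 (others 11.9 to 12.7). Pomc was at 120.5 CPM in female IS replicate 3 (others 0.735 to 2.56), and Ttr at 14.5 CPM in female FID replicate 3 (others 2.11 to 3.79) and 350.05 CPM in male FID replicate 4 (others 4.12 to 14.0).

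Penk lay in opposite directions in the sexes for ISch against IS, at a log2 fold change of 0.24 in females and -0.22 in males. Every ISch rat lay above the IS mean in females and below it in males. Of the 32 contrasts examined, such a split was otherwise seen only for Npy, in ISch against IS and FIDch against IS. All male rats with choline were at 0 CPM of Npy there, and no fold is given. The difference of Penk between the sexes was not tested.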

How the results depend on the processing

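No called difference of a precursor gene changed direction under the alternatives run. In male FIDch against IS the count of precursor genes called was 0 and became 1 without the filter on low counts (Vip). In male FIDch against FID it was 1 (Vip) and became 0 with DESeq2, with the 4 groups in one fit and with the replicate block. In female ISch against IS it was 1 (Pdyn) and became 2 with the likelihood ratio test, with the 4 groups in one fit and with the replicate block (Crh added), and 2 without the filter (Npy added). In the female iron by choline term it was 1 (Cck) and became 0 with the replicate block. In female FIDch against FID it was 3 (Pdyn, Penk and Crh), 4 without the filter or with the 4 groups in one fit (Cck added), 2 with the replicate block (Crh lost) and 3 with DESeq2 (Cck in place of Crh), and in FIDch against IS it was 3 and became 4 without the filter (Npy added). The cause was not tested.

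Leaving out 1 library gave 0 to 1 calls in male FIDch against IS (1, Vip, without IS replicate 2 or 3 or FIDch replicate 3), 0 to 1 in male ISch against IS (1, Penk, without IS replicate 4) and 0 to 1 in male FIDch against FID (0 without FID replicate 4 or FIDch replicate 1 or 4). In females it gave 0 to 2 in FID against IS (0 without FID replicate 3, and 2 with Sst or Tac1 added without IS replicate 3 or 4 or FID replicate 4) and 1 to 2 in ISch against IS (Pdyn in each, with Crh, Penk or Vip added without IS replicate 2, 3 or 4 or ISch replicate 1 or 3). It gave 2 to 4 in FIDch against IS, 2 to 5 in FIDch against FID (5, with Cck and Vip added, without FIDch replicate 4) and 0 to 2 in the iron by choline term (2, with Vip added, without FIDch replicate 4). Without 1 library, Cck was lost from that term for IS replicates 2 to 4, ISch replicates 1 and 4, FID replicates 1 and 3 and FIDch replicates 1 and 3.

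List genes with an adjusted p under 0.05 depended on single libraries and on the method. Over the lists of peptide processing, receptors, other precursors, peptidases, CREB and activity genes there were 8 in female ISch against IS, 2 in FIDch against IS and 3 in FIDch against FID, with 3 to 15, 0 to 8 and 0 to 8 when 1 library was left out, and 3 to 13, 0 to 11 and 3 to 8 under the other alternatives, lowest with the replicate block in the first and second of these and highest with DESeq2 in each (equalled by the likelihood ratio test in ISch against IS). Replicate numbers are shared between groups, but same-numbered libraries correlated at -0.257 to 0.295 in females and -0.303 to 0.328 in males, and 3 and 7 of 16 correlated best with their own number, so the replicate block was not the main fit and the pairing was not used. Low counts limit Npy, Crh, Oprk1, Oprd1, Crhr2 and male Tacr2, among others.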
